A study of Mus musculus with 2 samples.

Results

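The 10 genes of the p53 circuit and of the CDK inhibitor families named below are described here in mouse liver tumour cells with and without a hairpin against Etv4. They were chosen by symbol: Cdkn1a, Cdkn1b, Cdkn2a, Cdkn2b, Cdkn2c, Trp53, Mdm2, Mdm4, Ccng1 and Sesn1. All 10 were found, each on 1 row, among 55487 named genes, and all 10 reached 1 TPM in at least 1 library. The shETV4 group was LPC-HRas cells given a lentiviral hairpin against Etv4, an ETS-family transcription factor, and the shRFP group was the same line given a lentiviral hairpin against RFP, which serves as the control. Both groups share the LPC-HRas background, which the labels place in liver and call a hepatocellular carcinoma line. The hairpin sequences, the number of hairpins, the time after infection and the Trp53 and Cdkn2a genotype of the line are unstated in the labels and notes. RNA sequencing gave 1 library per group, so no value below has a replicate error and no difference was tested.

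The p53 protein is a transcription factor that is stabilised by DNA damage and by oncogene signals. The proteins Mdm2 and Mdm4 hold it in check, and its targets include the CDK inhibitor p21, encoded by Cdkn1a. CDK inhibitors of the CIP/KIP family (p21 and p27) bind cyclin-CDK complexes broadly, while those of the INK4 family (p15, p16 and p18) bind CDK4 and CDK6. In liver tumours both arms restrain cells that carry an active RAS gene, and the Cdkn2a product p19Arf joins them by inhibiting Mdm2.

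Cdkn1a was the member with the largest difference: it was 5.29-fold higher in the shETV4 library, at 11.9 TPM against 2.25 TPM in the shRFP library. Mdm4 was 2.24-fold lower in plain TPM. On the log2(TPM + 1) scale, which the 2-fold threshold uses, its difference was -1.07. There it came inside 2-fold after rescaling by a trimmed mean, after adjustment for GC content or with a larger pseudocount. The other 8 members lay within 2-fold on that scale. The 3 INK4 genes were all slightly higher, and Mdm2, Mdm4 and Ccng1 were all lower, though Ccng1 stood at 0.00 on the log2 scale after adjustment for GC content. Cdkn2a was by far the most abundant member in both libraries.

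The annotated start sites of Cdkn1a and of Cdkn2a are shown first, because 1 deposited value covers both starts of each gene. The Cdkn1a windows are 250 bases that end just before the start, on the plus strand of GRCm38.p6 at chr17:29090729-29090978 for the upstream start and chr17:29093519-29093768 for the downstream start. The starts lie 2790 bases apart. Capitals mark a match to the p53 full site in the first window and matches to the GC box GGGCGG in the second.
Cdkn1a upstream start: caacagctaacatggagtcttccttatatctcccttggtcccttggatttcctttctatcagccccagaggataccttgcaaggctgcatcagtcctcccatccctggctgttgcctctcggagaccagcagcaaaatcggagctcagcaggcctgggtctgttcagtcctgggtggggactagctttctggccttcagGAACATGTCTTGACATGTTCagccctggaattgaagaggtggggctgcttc
Cdkn1a downstream start: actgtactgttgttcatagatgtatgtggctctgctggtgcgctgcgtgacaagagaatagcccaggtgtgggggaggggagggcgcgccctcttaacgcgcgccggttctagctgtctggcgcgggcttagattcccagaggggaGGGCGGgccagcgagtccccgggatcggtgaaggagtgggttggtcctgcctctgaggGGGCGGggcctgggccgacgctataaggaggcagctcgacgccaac

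The p53 full site is a pair of adjacent decamers, and a match was allowed 1 base off the consensus outside the 4-base core of each decamer. The match, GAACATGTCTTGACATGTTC, lies at chr17:29090928-29090947, which is 51 to 32 bases before the upstream start and ends 2822 bases before the downstream start. It has 1 base off the consensus. Of 32851 RefSeq windows of the same length, 0.0457% held such a match, and of the 15 windows of the 10 members only this one did. A single exact decamer was in 7.13% of all windows and in 5 of the 15, those of Cdkn1a (upstream start), Ccng1, Mdm2, Sesn1 (downstream start) and Trp53. The upstream window of Cdkn1a held 2 exact decamers, and 1 of them is the first part of the full site. Only the 250 bases before each start were searched, so a site after a start or farther away would be missed. Such a match is a run of letters and shows no binding.

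The Cdkn2a windows lie on the minus strand at chr4:89294620-89294869 for the upstream start and chr4:89282193-89282442 for the downstream start, 12427 bases apart. Transcripts from the upstream start encode p19Arf and those from the downstream start p16Ink4a. Capitals mark matches to the E2F motif TTTCCCGC and to the GC box GGGCGG, read on both strands.
Cdkn2a upstream start: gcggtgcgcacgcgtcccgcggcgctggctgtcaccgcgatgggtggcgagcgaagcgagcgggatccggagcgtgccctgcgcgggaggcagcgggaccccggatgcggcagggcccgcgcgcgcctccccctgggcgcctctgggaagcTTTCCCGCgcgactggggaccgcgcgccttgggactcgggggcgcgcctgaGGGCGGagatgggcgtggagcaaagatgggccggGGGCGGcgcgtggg
Cdkn2a downstream start: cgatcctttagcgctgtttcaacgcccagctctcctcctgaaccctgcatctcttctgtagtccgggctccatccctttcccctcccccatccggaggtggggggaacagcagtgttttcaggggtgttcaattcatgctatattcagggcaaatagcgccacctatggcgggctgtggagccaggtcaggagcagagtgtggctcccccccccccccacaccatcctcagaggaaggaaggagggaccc

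The upstream window had a GC content of 78.4% and held 1 E2F match and 2 GC boxes, while the downstream window held none of either. Over all windows the E2F motif was in 0.895% and the GC box in 32.7%. GC boxes were in 7 of the 15 members' windows, belonging to 6 genes. The ETS motif CCGGAAG, of the kind that Etv4 and its relatives bind, was in 6.91% of all windows and in 1 of the 15, that of Mdm2. The interferon-stimulated response element TTTCNNTTTC was in 2.98% of all windows and in none of the 15. The cell cycle motif CHR, written TTTGAA, was in 16% of all windows and in 1 of the 15, that of Cdkn2b. All motifs were read on both strands. Sequences and start sites are RefSeq's.

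**Figure D1:**
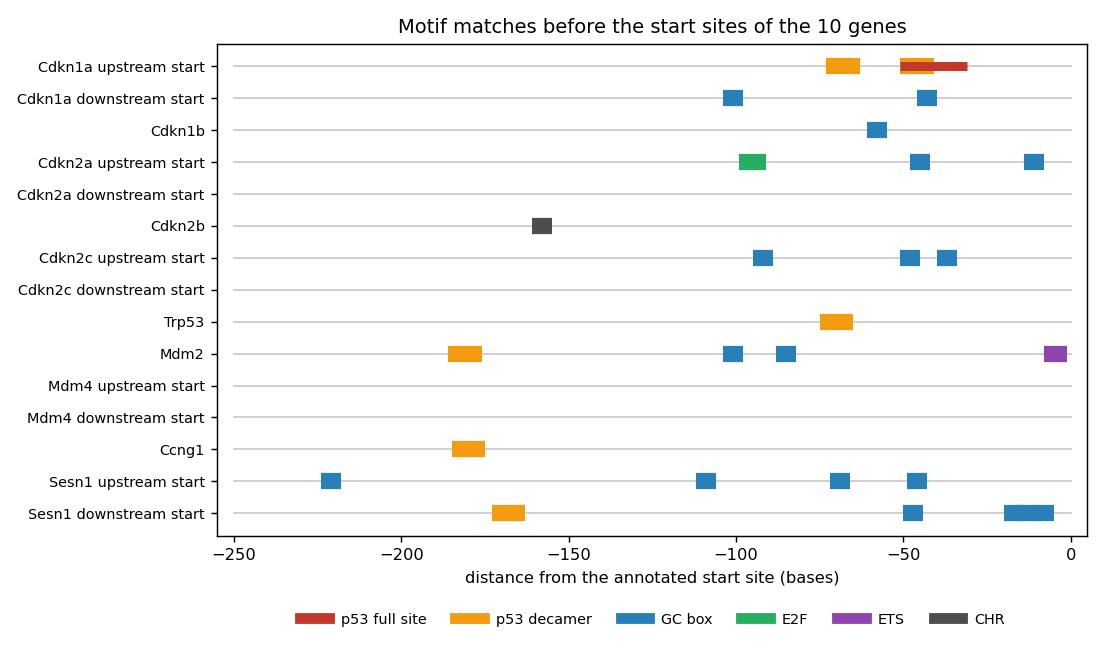
Motif matches in the 250 bases before each annotated start of the 10 genes. The x axis is the distance from the start in bases, each line is 1 of 15 windows and each block is 1 match. The p53 full site is seen 51 to 32 bases before the upstream start of Cdkn1a and in no other window.

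TPM, a gene's share of all transcripts on a fixed total, are scaled to transcript length and to each library's own total, so levels of different genes can be set side by side, while sequencing depth and counting error are unknown. Each difference is the log2(TPM + 1) value with shETV4 minus that with shRFP. Low genes differ by less on this scale than by their plain TPM ratio, which is what a fold value gives. Past 2-fold means a difference of at least 1 or at most -1 on that scale. A gene was evaluated if at least 1 library gave it 1 TPM. Of 12968 evaluated genes, 3.39% were past 2-fold upward and 7.06% downward, and their median difference was -0.10. A trimmed mean of log ratios lay at -0.13, so values relative to that shift are given as the trimmed-mean scale. The difference followed base composition, with a rank correlation of 0.52 with transcript GC content across 12947 genes, which are not independent. A GC-adjusted difference is therefore given too. Etv4 itself was at 16.2 TPM with shETV4 and 73.2 TPM with shRFP. Of cell type markers, 1 of 8 hepatocyte genes reached 1 TPM, and Alb, a defining gene of mature hepatocytes, was listed at 0 in both libraries. The hepatocyte sum was nearly all Trf, at 127 TPM with shETV4 and 27.5 TPM with shRFP, and Cyp2e1 was also listed at 0 in both. Also at 1 TPM or more were 3 of 6 biliary and progenitor genes (Krt19, Sox9 and Spp1), 5 of 7 stellate and fibroblast genes, 0 of 6 leukocyte genes and 0 of 5 endothelial genes. Their summed levels with shETV4 and with shRFP were 127 and 27.7 TPM for hepatocyte, 558 and 479 TPM for biliary and progenitor, 973 and 1524 TPM for stellate and fibroblast, 0.15 and 0.07 TPM for leukocyte and 0.66 and 0.46 TPM for endothelial genes. The stellate and fibroblast sum was lower through Acta2, at 655 TPM with shETV4 and 1256 TPM with shRFP, while the other 4 of its evaluated genes (Col1a1, Col1a2, Pdgfrb and Dcn) were higher with shETV4 and within 2-fold as deposited, with Dcn at 1.11 after GC adjustment. Of the leukocyte and the endothelial genes 3 each were listed at 0 in both libraries. Whether other cell types bear on the differences below was not tested.

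Among the members 1 of 10 was past 2-fold upward and 1 of 10 downward, against the 3.39% and 7.06% of all evaluated genes and 2.16% and 6.37% of the protein-coding ones, which all 10 are. On the trimmed-mean scale the members' counts were 1 upward and 0 downward, against 4.14% and 5.05% of all evaluated genes, and after GC adjustment they were again 1 and 0, against 4% and 2.32%. At 1.5-fold they were 1 and 2, against 8.61% and 20.0%, and at 3-fold 1 and 0, against 1.25% in each direction. The median difference of the 10 was 0.02, or 0.14 on the trimmed-mean scale and 0.21 after GC adjustment. The order of levels with shETV4 ran Cdkn2a, Cdkn2b, Trp53, Cdkn2c, Cdkn1b, Mdm2, Cdkn1a, Sesn1, Mdm4 and Ccng1. With shRFP it ran Cdkn2a, Trp53, Cdkn2b, Cdkn2c, Cdkn1b, Mdm2, Mdm4, Ccng1, Sesn1 and Cdkn1a. Cdkn1a thus held rank 7 with shETV4 and rank 10 with shRFP, and its place differed most between the libraries. With 1 library each, no neighbouring ranks can be told apart by a spread.

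**Figure D2:**
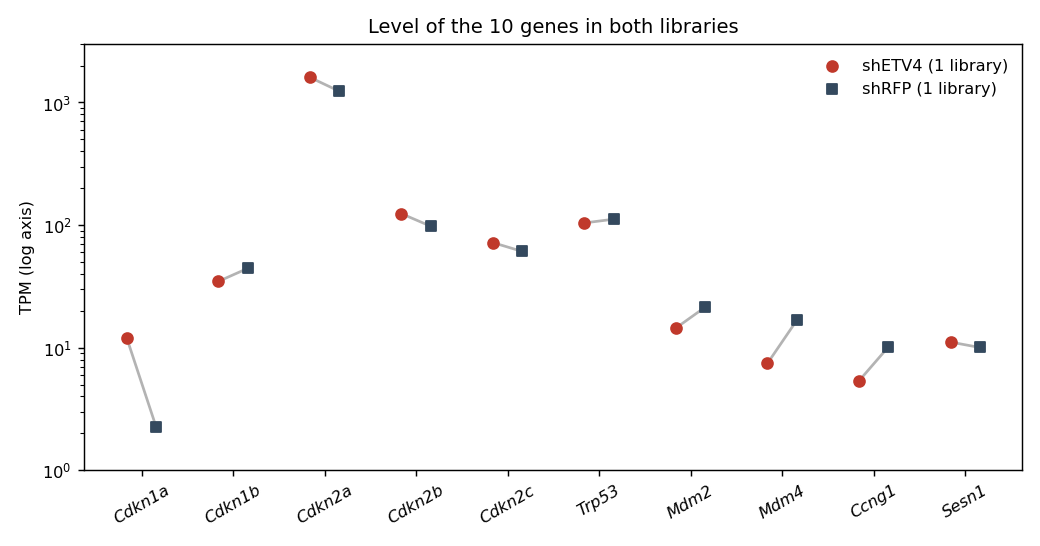
Level of the 10 genes in TPM on a log axis, with 1 point per library, shETV4 as circles and shRFP as squares joined by a line. Cdkn1a stands at 11.9 TPM with shETV4 and 2.25 TPM with shRFP, and Cdkn2a is the highest point of both libraries, at 1602 and 1236 TPM.

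Of the CIP/KIP inhibitors, Cdkn1a (ENSMUSG00000023067) lies on chromosome 17 at 29090976 to 29100727 on the plus strand of GRCm38. Its protein p21 binds cyclin-CDK2 and PCNA and is the classical effector of p53 in growth arrest. The difference between 11.9 TPM with shETV4 and 2.25 TPM with shRFP was 1.99, rank 102 from the highest of 12968 genes. It was 2.11 on the trimmed-mean scale and 1.91 after GC adjustment. Among 3477 genes with a summed level within 2-fold of that of Cdkn1a, 3.19% were past 2-fold upward. Its low shRFP level makes the size depend on the pseudocount: the difference was 2.35 with 0.1 added and 1.22 with 5 added. An annotated gene on the other strand, 1700023B13Rik, shares 7.68% of the exonic bases of Cdkn1a. It was at 0.07 TPM with shETV4 and listed at 0 with shRFP. Whether the counting used strand is unstated. In bulk RNA, fewer cells with the transcript and less transcript per cell cannot be told apart.

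Cdkn1b (ENSMUSG00000003031), on chromosome 6 at 134920401 to 134925513, encodes p27, which holds cyclin-CDK2 inactive in resting cells. It was at 34.7 TPM with shETV4 and 44.3 TPM with shRFP, a difference of -0.34 that became 0.25 after GC adjustment, so its direction is not settled. Cdkn1b exceeded Cdkn1a 2.92-fold with shETV4 and 19.7-fold with shRFP. The sum of both genes was 46.6 TPM in each library, so the mix of the pair differed while its total was nearly the same. The third CIP/KIP gene Cdkn1c, an imprinted gene that encodes p57, was at 21.5 TPM with shETV4 and 17.5 TPM with shRFP.

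The INK4 genes, which block CDK4 and CDK6, were all slightly higher with shETV4. Cdkn2a (ENSMUSG00000044303), at 89274471 to 89294653 of chromosome 4, minus strand, was at 1602 TPM with shETV4 and 1236 TPM with shRFP. That placed it at rank 108 and rank 134 of all named genes by level. The deposited value does not separate p16Ink4a from p19Arf. Its difference was 0.37, or 0.19 after GC adjustment. Cdkn2b (ENSMUSG00000073802), which encodes p15 and lies 11646 bases away at 89306299 to 89311039 on the same strand, was at 124 TPM with shETV4 and 97.8 TPM with shRFP, a difference of 0.34. Cdkn2c (ENSMUSG00000028551), which encodes p18 and lies at 109660876 to 109667189, was at 71.9 TPM with shETV4 and 60.9 TPM with shRFP, a difference of 0.24. All 3 stayed above 0 on the deposited, median-ratio and trimmed-mean scales and after GC adjustment, within a range of 0.19 to 0.51. The fourth family member Cdkn2d, which encodes p19Ink4d, was at 54.2 TPM with shETV4 and 33.5 TPM with shRFP, a difference of 0.68. Cdkn3, a phosphatase that acts on CDK2 and is no member of either family, was at 31.1 TPM with shETV4 and 31.99 TPM with shRFP.

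Within the 5 inhibitors the proportions were nearly fixed apart from the CIP/KIP pair. Cdkn2a made up 86.9% of their summed TPM with shETV4 and 85.8% with shRFP, and Cdkn2b 6.71% and 6.79% in the same order. The ratio of Cdkn2a to Cdkn2b was 12.9 with shETV4 and 12.6 with shRFP. Cdkn1a made up 0.645% with shETV4 and 0.156% with shRFP. Cdkn2a and Cdkn2b arose by duplication and are alike in part, and how their reads were divided is unstated.

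Trp53 (ENSMUSG00000059552), the gene of p53, lies on chromosome 11 at 69580359 to 69591873 on the plus strand. It was at 104 TPM with shETV4 and 112 TPM with shRFP, a difference of -0.10 that became 0.03 on the trimmed-mean scale. Its RNA was thus abundant and nearly level between the libraries, at rank 1435 with shETV4 and rank 1379 with shRFP. RNA level shows neither p53 protein nor its activity, since p53 is controlled mainly by protein turnover. The family members Trp63 and Trp73 were not evaluated: Trp63 was at 0.08 TPM with shETV4 and 0.30 TPM with shRFP, and Trp73 was listed at 0 in both.

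Both inhibitors of p53 were lower with shETV4. Mdm2 (ENSMUSG00000020184), on chromosome 10 at 117688875 to 117710758, encodes the ubiquitin ligase that marks p53 for destruction and is itself a p53 target. It was at 14.5 TPM with shETV4 and 21.4 TPM with shRFP, a difference of -0.54 that was -0.16 after GC adjustment. Mdm4 (ENSMUSG00000054387), on chromosome 1 at 132959484 to 133030561, encodes a relative of Mdm2 that masks the activation domain of p53. It was at 7.45 TPM with shETV4 and 16.7 TPM with shRFP, a difference of -1.07. Mdm4 came inside 2-fold at -0.95 on the trimmed-mean scale, at -0.47 after GC adjustment and at -0.80 with 5 added. Among 4150 genes with a summed level within 2-fold of that of Mdm4, 8.82% were past 2-fold downward. The ratio of Trp53 to Mdm4 in deposited TPM was 14.0 with shETV4 and 6.69 with shRFP. That of Trp53 to Mdm2 was 7.20 with shETV4 and 5.21 with shRFP. Neither ratio is adjusted for GC content, after which Trp53 stood at -0.15, Mdm4 at -0.47 and Mdm2 at -0.16.

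The other p53 targets among the 10 lay within 2-fold, and Ccng1 was the lowest of them. Ccng1 (ENSMUSG00000020326), on chromosome 11 at 40748552 to 40755311, encodes cyclin G1, which works with a phosphatase that acts on Mdm2. It was at 5.36 TPM with shETV4 and 10.1 TPM with shRFP, a difference of -0.81 that became 0.00 after GC adjustment. Sesn1 (ENSMUSG00000038332), on chromosome 10 at 41809935 to 41908424, encodes sestrin 1, which restrains mTORC1 through the GATOR2 complex. It was at 11.1 TPM with shETV4 and 10.03 TPM with shRFP, a difference of 0.13 that was 0.49 after GC adjustment. Mdm2, Ccng1 and Sesn1 summed to 30.9 TPM with shETV4 and 41.6 TPM with shRFP.

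**Figure D3:**
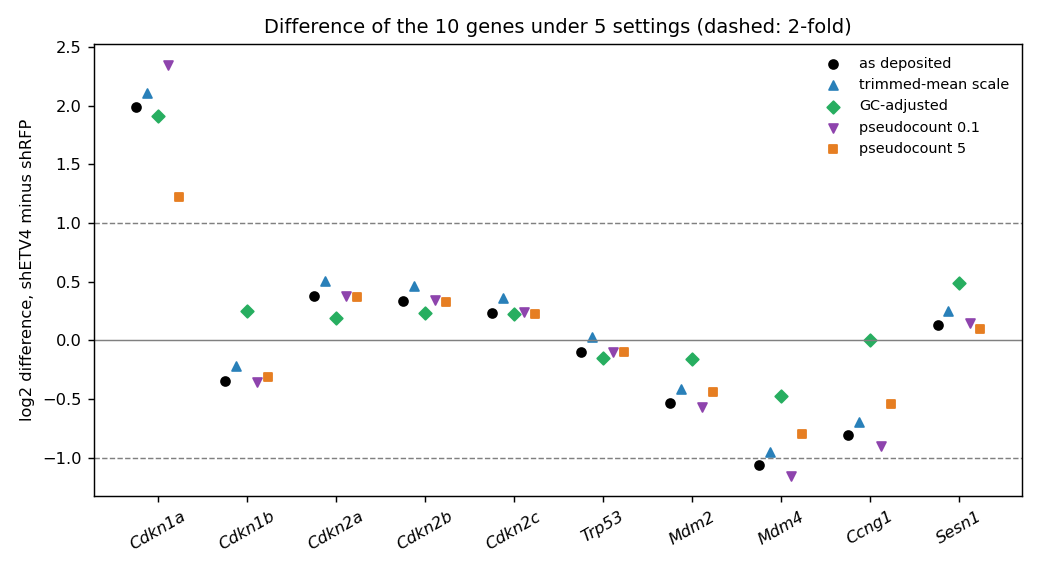
Difference of the 10 genes, shETV4 minus shRFP on the log2 scale, under 5 settings shown as separate symbols, with dashed lines at 2-fold. Cdkn1a stays above 1 in all 5, Mdm4 is below -1 as deposited and with pseudocount 0.1, and the other 8 genes stay between the lines.

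The members' differences followed their base composition. The rank correlation between transcript GC content and difference was 0.90 over the 10 genes and 0.92 over the 9 without Cdkn1a, a description over genes of the same pair of libraries. Ccng1, Mdm4, Cdkn1b, Mdm2 and Sesn1 had GC contents of 37.4%, 43.2%, 43.4%, 46.3% and 46.6%. The other 5 ranged from 51.4% (Cdkn2c) to 59.0% (Cdkn2a). Among the 927 genes within 1 percentage point of Mdm4 the median difference was -0.60 and 159 were past 2-fold downward. Among the 114 genes within 1 point of Ccng1 the median was -0.81, the same as Ccng1 itself. Among the 1452 genes within 1 point of Cdkn1a, at 54.4%, the median was 0.08 and 61 were past 2-fold upward. Whether base composition itself produced the differences of Mdm2, Mdm4 and Ccng1 was not tested.

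**Figure D4:**
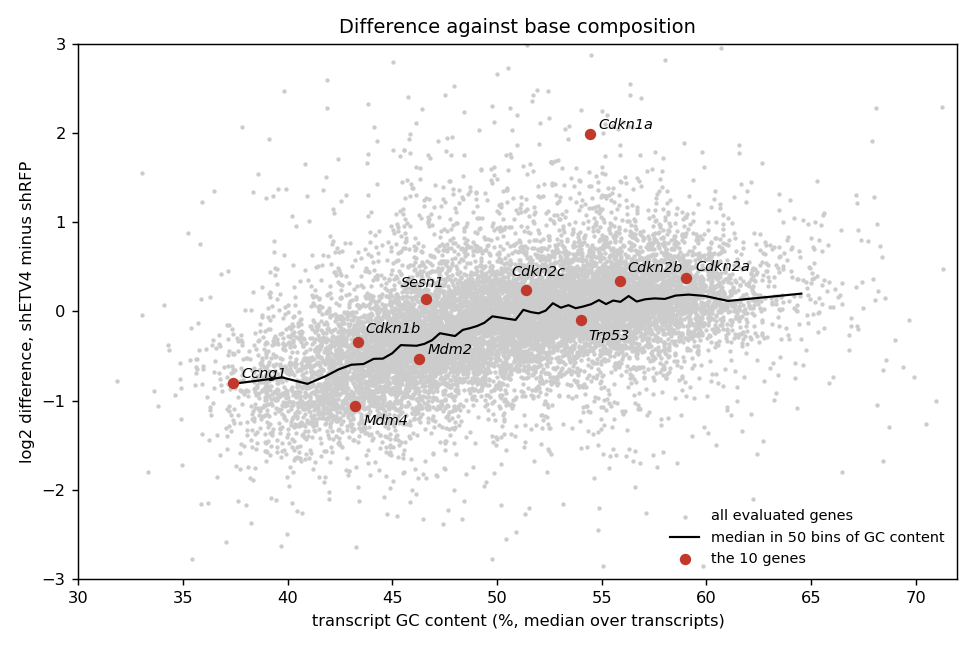
Difference, shETV4 minus shRFP on the log2 scale, against transcript GC content in percent, with each evaluated gene as a grey dot, the median of 50 GC bins as a line and the 10 genes in red; 80 of 12947 genes lie outside the axes. Ccng1 sits on the line at 37.4% GC, and Cdkn1a lies far above it at 54.4%.

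Beyond the members, 23 of 27 further p53 target genes were evaluated, and 0 were past 2-fold in either direction, with 11 above and 12 below 0. Their median was -0.11, against -0.10 for all evaluated genes, and it lay on the other side of 0 on the trimmed-mean scale, at 0.01, and after GC adjustment, at 0.16. The highest was Cd82, a tetraspanin that suppresses metastasis, at 59.0 TPM with shETV4 and 34.3 TPM with shRFP, a difference of 0.77. The lowest was Trp53inp1, a nuclear cofactor of p53, at 0.38 TPM with shETV4 and 1.06 TPM with shRFP. Its difference was -0.58, or 0.19 after GC adjustment, so its direction is not settled. The pro-apoptotic gene Bax was at 175 TPM with shETV4 and 150 TPM with shRFP, and Bbc3, which encodes Puma, at 15.1 TPM with shETV4 and 11.5 TPM with shRFP. With the 4 targets among the members added, 27 evaluated p53 targets held 1 gene past 2-fold, Cdkn1a, which was upward. Across all evaluated genes the shares were 3.39% upward and 7.06% downward. With pseudocount 0.1 Trp53inp1 was past 2-fold too, downward.

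Of 21 p53 family genes and regulators, 19 were evaluated. Downward past 2-fold were 2 and upward 0, against 7.06% and 3.39% of all evaluated genes. The list median was -0.51 (-0.12 after GC adjustment). Usp7, a deubiquitinase that stabilises both Mdm2 and p53, was at 32.01 TPM with shETV4 and 68.9 TPM with shRFP. Prkdc, the catalytic subunit of DNA-dependent protein kinase, was at 0.62 TPM with shETV4 and 2.29 TPM with shRFP. After GC adjustment these stood at -0.49 and -0.34, within 2-fold. The damage kinase gene Atm was at 2.67 TPM with shETV4 and 5.12 TPM with shRFP, a difference of -0.74 that was -0.12 after GC adjustment. Daxx, which binds p53 and Mdm2, was the highest of the list at 81.0 TPM with shETV4 and 42.7 TPM with shRFP, a difference of 0.91 that passed 2-fold on the trimmed-mean scale at 1.04.

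The median over 12 transcription factors known to act on Cdkn1a other than p53 was -0.06. It was 0.06 on the trimmed-mean scale and -0.22 after GC adjustment. Downward past 2-fold was 1 of them, against 7.06% of all evaluated genes. That gene was Sp3, a GC-box factor, at 8.80 TPM with shETV4 and 18.7 TPM with shRFP, a difference of -1.01 that was -0.25 after GC adjustment. Myc, a repressor of Cdkn1a, was at 264 TPM with shETV4 and 280 TPM with shRFP. Of 11 regulators of the Cdkn2a and Cdkn2b locus 0 were past 2-fold, against 3.39% upward and 7.06% downward of all evaluated genes. Their median was 0.00. Id1, an inhibitor of ETS factors at Cdkn2a, was the highest at 192 TPM with shETV4 and 109 TPM with shRFP. Dmtf1, an activator of the Arf promoter, was the lowest as deposited at 4.92 TPM with shETV4 and 10.4 TPM with shRFP. Its difference was -0.94, or -0.34 after GC adjustment.

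Of the 12 CDKs and cyclins that the inhibitors bind, 1 was past 2-fold upward and 1 downward, against 3.39% and 7.06% of all evaluated genes. Their median was -0.10, or 0.03 on the trimmed-mean scale. The D-type cyclin gene Ccnd3 was at 304 TPM with shETV4 and 136 TPM with shRFP, and the E-type cyclin gene Ccne2 at 4.32 TPM with shETV4 and 11.5 TPM with shRFP. After GC adjustment they stood at 0.98 and -0.56, within 2-fold. Cdk4, the main INK4 target, was at 494 TPM with shETV4 and 478 TPM with shRFP. Cdk2, the main CIP/KIP target, was at 46.6 TPM with shETV4 and 46.9 TPM with shRFP.

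Genes reported as lowered through p21 and the DREAM repressor complex were 14, all evaluated, and 0 were past 2-fold. All 14 lay below 0 as deposited, with a median of -0.25, while 9 lay below 0 on the trimmed-mean scale and 10 after GC adjustment. The median of all evaluated genes as deposited was -0.10, so more of them lay below 0 than above it. A difference of -0.0017 held rank 7550 from the lowest of these 12968 genes. Among genes with a summed level within 2-fold of that of each of the 14, the median ran from -0.22 to -0.0079. Whether p21 bears on these 14 genes was not tested. Ccnb1, which encodes mitotic cyclin B1, was the lowest as deposited at 73.3 TPM with shETV4 and 129 TPM with shRFP. Its difference was -0.80, or -0.27 after GC adjustment. Ccnb2 was the highest at 99.2 TPM with shETV4 and 105 TPM with shRFP. The median of 15 retinoblastoma, E2F and DREAM genes was -0.36 (-0.06 after GC adjustment). Of these, 1 was past 2-fold downward and 0 upward, against 7.06% and 3.39% of all evaluated genes. That gene was Lin9, a subunit of the MuvB core, at 5.53 TPM with shETV4 and 12.7 TPM with shRFP, and it stood at -0.95 on the trimmed-mean scale.

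Of 10 genes that govern turnover of p21 and p27 proteins, 1 was past 2-fold downward and 0 upward. All evaluated genes, the comparison for each list here, had 7.06% past it downward and 3.39% upward. The turnover list had a median of -0.49 (-0.06 after GC adjustment). Cul4b, a scaffold of the ubiquitin ligase that degrades p21, was at 10.6 TPM with shETV4 and 32.9 TPM with shRFP, a difference of -1.55, or -0.75 after GC adjustment. Skp2, the substrate receptor for p27, was at 30.7 TPM with shETV4 and 43.3 TPM with shRFP. None of the 9 sestrin, GATOR2 and Castor genes was past 2-fold, and their median was -0.00, or 0.09 after GC adjustment. The highest as deposited was Sesn2, another sestrin, at 13 TPM with shETV4 and 8.40 TPM with shRFP. The lowest as deposited was Mios, a GATOR2 subunit, at 4.94 TPM with shETV4 and 7.53 TPM with shRFP. The difference of Mios was -0.52, or 0.29 after GC adjustment, so its direction is not settled. Of 12 senescence-associated genes 11 were evaluated and 0 were past 2-fold, with a median of -0.03. After GC adjustment the median was 0.14 and 1 gene was past 2-fold upward, Cxcl2 at 1.10, a chemokine gene at 1.25 TPM with shETV4 and 0.52 TPM with shRFP. As deposited, Igfbp3 was the highest at 9.41 TPM with shETV4 and 5.08 TPM with shRFP. Il6 was the lowest as deposited, at 2.46 TPM with shETV4 and 5.24 TPM with shRFP. The difference of Il6 was -0.85, or -0.07 after GC adjustment.

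**Figure D5:**
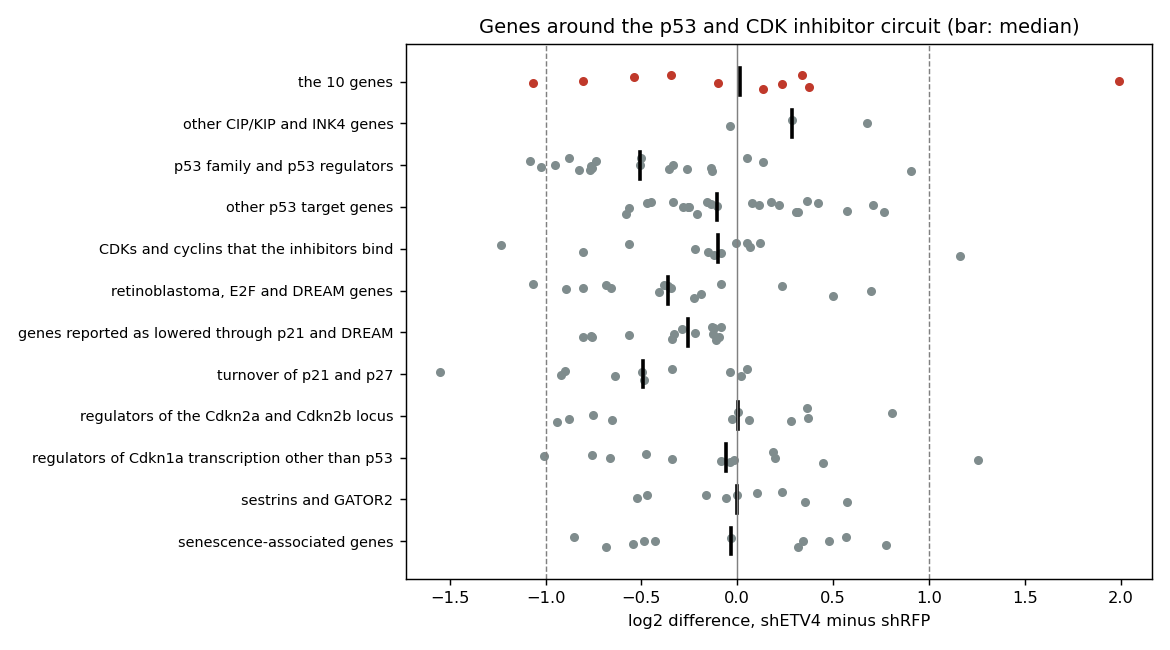
Difference, shETV4 minus shRFP on the log2 scale, of each evaluated gene in 11 lists around the 10 genes, with the 10 genes in red in the top row, 1 further row per list, a bar at the median and dashed lines at 2-fold. Cdkn1a, at 1.99, is the point farthest to the right, and Cul4b, at -1.55, the point farthest to the left.

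The genes whose pair of values lay nearest to that of Cdkn1a, by distance on the log2(TPM + 1) scale over the 2 libraries among 11206 named protein-coding genes, were Hpse, H2-Q4 and Sh2d5. Hpse was at 10.8 TPM with shETV4 and 2.90 TPM with shRFP, H2-Q4 at 10.1 and 1.77 TPM and Sh2d5 at 9.03 and 2.26 TPM in the same order, at distances of 0.29, 0.32 and 0.36. H2-Q4 belongs to a family of closely similar MHC genes, so its value is uncertain. Nearest to Mdm4 were Paxbp1, Rad18 and Ginm1, at distances of 0.01 to 0.03.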

How the data were processed

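RNA of LPC-HRas cells was sequenced from 1 shETV4 and 1 shRFP library, prepared with a TruSeq kit per the labels' protocols. Groups were taken from the treatment label. The values deposited by the authors are TPM with 2 decimals, 1 per gene and library; the unit was read from the totals, 999870.3 with shETV4 and 999999.77 with shRFP. The submitters' processing notes name HISAT2, RSEM and GRCm38.p4, with no roles or versions. No source names the annotation release, strand setting or filters, and TPM keep no depth, so no counting interval is given.

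The 10 members were selected by symbol from 55640 rows, of which 153 had no gene name and were left out. The members and gene lists were chosen with earlier results of these data known. Differences used a pseudocount of 1, a minimum of 1 TPM in either library and a 2-fold threshold, which is a rule of size and no test. GENCODE M21 (GRCm38) gave positions, transcript GC content and shared exonic bases for 99.5% of named genes. RefSeq windows (GRCm38.p6) covered 250 bases before each start, and the bases after each start were found in a GENCODE transcript for all members' windows but the upstream one of Mdm4. The text names all members, Etv4, list genes past 2-fold (up to 4 in each direction, or else the highest and lowest of a list) and the 3 genes nearest to each member past 2-fold. Cdkn1c, Trp63, Trp73, Bax, Bbc3, Atm, Daxx, Myc, Cdk4, Cdk2, Skp2, Cxcl2 and the neighbouring genes were added after their values were seen. The GC adjustment subtracts the running median over 50 bins of GC content, and the trimmed mean drops the outer 30% of ratios and 5% of levels on either side, over 17392 genes above 0 in both libraries. Alternatives covered pseudocount, filter, scale, GC content, threshold and repeated symbols. The result of 1 list gene past 2-fold is not reported here. The procedure was tested on simulated data. Python 3.11.15, numpy 2.4.6, pandas 2.3.3 and matplotlib 3.10.9 were used.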

Additional observations from a re-analysis of the deposited data

How the results depend on the processing

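No paired analysis was possible because there was 1 library per group, and for the same reason no replicate could be left out. Cdkn1a was past 2-fold upward under every alternative run, over a range of 1.22 to 2.35, and 1 member was past 3-fold upward. The count of members past 2-fold downward, 1 as deposited, was 0 with pseudocount 5, on the trimmed-mean scale, after GC adjustment and at 3-fold, and 2 at 1.5-fold, where Ccng1 joined Mdm4. The members' median of 0.02 was 0.0014 with pseudocount 5, 0.0815 on the median-ratio scale, 0.14 on the trimmed-mean scale and 0.21 after GC adjustment. Trp53, at -0.10 as deposited, turned to 0.0295 on the trimmed-mean scale and Cdkn1b, at -0.34, to 0.25 after GC adjustment. Over all lists 6 distinct genes were past 2-fold downward and 2 upward. The downward count was 12 with pseudocount 0.1, 1 with pseudocount 5, 5 with a minimum of 5 TPM and 4 on the median-ratio scale. It was 2 on the trimmed-mean scale, 0 after GC adjustment, 30 at 1.5-fold and 0 at 3-fold. The upward count was 3 with pseudocount 0.1, 3 on the trimmed-mean scale, 9 at 1.5-fold and 0 at 3-fold. Shares of all evaluated genes with the other pseudocounts are not given. Of all evaluated genes 7.06% were past 2-fold downward and 3.39% upward, and at 1.5-fold 20.0% were past the threshold downward and 8.61% upward. Summing rows with 1 symbol changed no member, since each member has 1 row. The cause of these shifts was not tested. Depth is unknown, so low levels such as that of Cdkn1a with shRFP carry an unknown counting error.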

Other observations

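Genes near the members were looked at by a rule set after values were seen: evaluated genes within 100000 bases, other than the members. Of 33 such genes 7 were past 2-fold upward and 2 downward, and of the 27 protein-coding ones 2 were past it upward and 2 downward. Of all evaluated genes 3.39% were past it upward and 7.06% downward, and of the protein-coding ones 2.16% and 6.37%. The other 5 upward genes were 3 snoRNAs, 1 lincRNA and 1 processed pseudogene, and 3 of these 5 were listed at 0 with shRFP. The 3 snoRNAs all lie near Trp53, at 75961, 76979 and 77762 bases from it, so they are not 3 separate neighbourhoods. Stk38 and Srsf3, the evaluated neighbours of Cdkn1a, were at 42.9 and 121 TPM with shETV4 and at 45.0 and 183 TPM with shRFP, both within 2-fold. Mtap, 93390 bases from Cdkn2a, was at 138 TPM with shETV4 and 185 TPM with shRFP. Wrap53, which lies head to head with Trp53 on the other strand, was at 23.2 TPM with shETV4 and 20.97 TPM with shRFP. The axonemal dynein gene Dnah2, 31249 bases from Trp53, was at 17.1 TPM with shETV4 and 6.50 TPM with shRFP, and Tnfsf12, a cytokine gene 94377 bases from Trp53, was at 5.81 TPM with shETV4 and 16.97 TPM with shRFP. Cpm, a carboxypeptidase gene 1523 bases from Mdm2, was at 3.21 TPM with shETV4 and 0.87 TPM with shRFP. Hmmr, a mitotic spindle gene 15130 bases from Ccng1, was at 6.44 TPM with shETV4 and 18.4 TPM with shRFP.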
